A study of Mus musculus with 8 samples.

Results

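The mitochondrial genome of the mouse is a small circular chromosome that each cell carries in many copies inside its mitochondria. Its genes were followed here in CD8+ T cells that had lost the fatty acid elongase gene Elovl1 or received a control guide. The members were all genes in the count table whose symbol begins with mt-, which gave 37 of 56805 genes. They comprised 13 mRNAs, 2 rRNAs and 22 tRNAs, of which 28 are read from the heavy strand and 9 from the light strand.

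The mitochondrial genome is transcribed in both directions as long precursor RNAs that cover nearly the whole circle. The tRNAs lie between most of the rRNAs and mRNAs, and cutting them out at both ends releases the molecules on either side. The mRNAs then receive a short poly(A) tail, which in several of them completes the stop codon. The rRNAs build the mitochondrial ribosome, the tRNAs serve it, and the mRNAs encode membrane subunits of respiratory complexes I, III and IV and of ATP synthase (complex V). These machines supply ATP and reoxidise NADH in activated T cells, and all other subunits are encoded in the nucleus. Parts of the mitochondrial genome have also been copied into nuclear chromosomes during evolution, and such copies can be so similar that a read cannot be assigned to one place.

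The table held 4 columns of counts, each the sum of 2 mice. In each of 2 experiments, OT-I T cells of mice that carry Cas9 at the Rosa26 locus were activated with anti-CD3/CD28 beads, transduced with a lentivirus carrying either the control guide sgNT, which has no target, or the Elovl1 guide sgElovl1, and sorted for the CD90.1 reporter of the vector 3 days later. OT-I cells bear a transgenic receptor for a peptide of ovalbumin. All 4 groups therefore expressed Cas9, were kept in the same cytokines and were sorted in the same way, and the sgElovl1 cells were a pool of edited cells rather than a clone. The mice were young adults of both sexes, and the summed columns do not separate the animals or the sexes. RNA was made into strand-specific mRNA libraries.

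Column totals ranged from 49068952 to 63623476 counts, and 3 counts corresponded to between 0.0472 and 0.0611 CPM, the counts of a gene scaled to a fixed library size. The T cell genes Cd8a, Cd8b1, Cd3e and Trac lay between 421 and 1067 CPM, whereas Cd4, Ms4a1, Lyz2 and Csf1r reached at most 1.08 CPM. Elovl1 was at 110 CPM with sgNT and 61.3 CPM with sgElovl1 in experiment 1, and at 93.5 and 55.8 CPM in experiment 2. Its log2 fold change of -0.80 (SE 0.07) had an adjusted p of 3.80e-28 in edgeR's quasi-likelihood test, and 55.4% and 59.7% of its RNA was left in the 2 experiments. CPM values were scaled between columns by the TMM method (trimmed mean of M values), and log2 differences within an experiment were computed after adding a prior count of 2.

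Mitochondrial RNA made up a substantial share of every library, and mRNAs made up most of it. All 37 members together took 7.73% of the counts with sgNT and 9.72% with sgElovl1 in experiment 1, and 10.2% and 14.3% in experiment 2. The share was higher with sgElovl1 in each experiment, but the sgElovl1 column of experiment 1 lay below the sgNT column of experiment 2. The mRNAs alone took 6.82%, 8.72%, 9.59% and 13.5% in the same order. The rRNAs took 0.897%, 0.985%, 0.579% and 0.824%, and the 22 tRNAs took 0.00752% to 0.0103%.

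The mRNAs were not at equal levels, although their heavy-strand genes are copied as parts of one precursor. Per kilobase of gene, mt-Co1, the catalytic core of cytochrome c oxidase (complex IV), was the highest, with a mean over the 4 columns of 29388 CPM per kilobase and a range from 20174 to 42976. The complex I subunit mt-Nd1 followed with a mean of 15786 (12281 to 21399), and mt-Cytb, the cytochrome b of complex III, with a mean of 13363 (9321 to 19349). The ranges of these neighbours overlapped across columns, but within each of the 4 columns the order was mt-Co1, mt-Nd1, mt-Cytb. Next came mt-Nd2 with a mean of 7812, mt-Nd5 with 4025 and mt-Nd4 with 3927 CPM per kilobase, all subunits of complex I, and the levels of the last pair did not separate. The rRNAs of the large and small ribosomal subunit, mt-Rnr2 and mt-Rnr1, lay near these with means of 3410 and 2963. The only mRNA of the light strand, mt-Nd6, was lower, with a mean of 287 CPM per kilobase.

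The other 6 mRNAs were at far lower levels, and 5 of them share nearly all of their sequence with nuclear copies. The complex IV subunits mt-Co2 and mt-Co3 had means of 75.2 and 67.0 CPM per kilobase, and the ATP synthase subunits mt-Atp6 and mt-Atp8 had means of 57.1 and 28.2. The complex I subunits mt-Nd3 and mt-Nd4l had means of 13.3 and 11.5. Of all 50-base words in each gene, 100% of those in mt-Co2, 99.9% in mt-Co3, 99.5% in mt-Atp6, 98.8% in mt-Nd4l and 98.0% in mt-Nd3 occur also in an annotated transcript of a nuclear chromosome, against 62.2% in mt-Nd4, 51.1% in mt-Co1 and at most 8.2% in each other mRNA. For mt-Atp8 the share was 0%, but this gene lies at chrM:7766-7969 (GRCm38), next to mt-Tk and mt-Co2, and overlaps the start of mt-Atp6 by 43 bases. How the counting program treated reads with several places of origin is not stated in the methods or labels. The levels of these 6 mRNAs are therefore uncertain. Those of mt-Nd4 and mt-Co1 per kilobase of whole gene are uncertain too, since 62.2% and 51.1% of their words are shared. At 95% identity over at least 50 bases, nuclear transcripts match 100% of the bases of mt-Co1 and 63.6% of those of mt-Nd4. By that looser measure they match 52.3% of mt-Nd5 and 49.1% of mt-Nd2. Whether reads of these genes were set aside or moved to the copies was not tested.

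**Figure D1:**
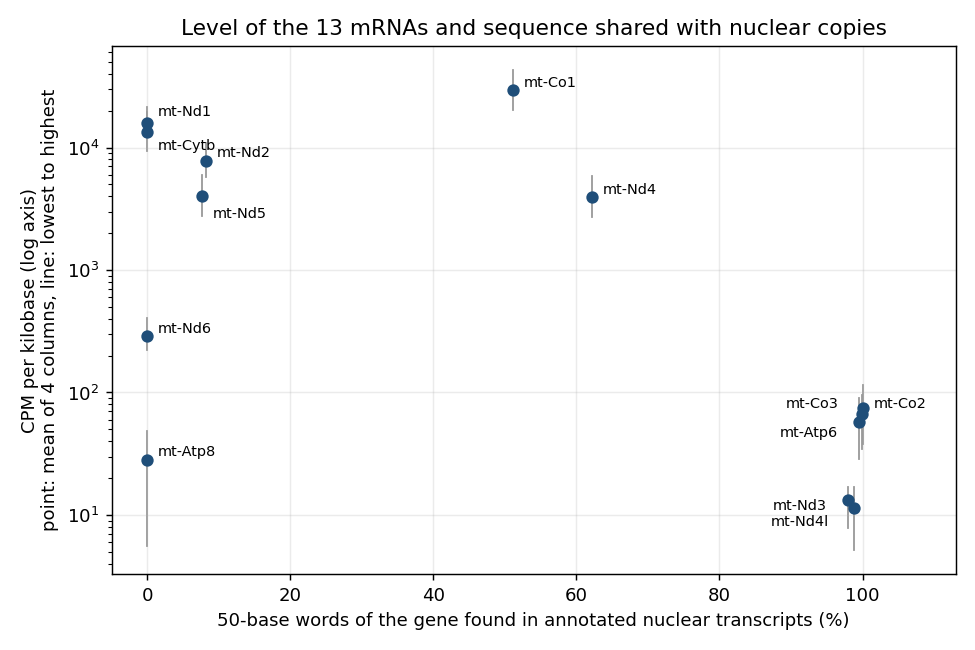
Mean level of each of the 13 mRNAs in CPM per kilobase (vertical log axis, line from the lowest to the highest of 4 columns) against the percentage of its 50-base words that also occur in annotated nuclear transcripts (horizontal axis). The 5 mRNAs at 98.0% or more lie at means of 75.2 CPM per kilobase or lower, as does mt-Atp8 at 0%, and the other 7 lie at means of 287 or higher.

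The sequences show how close the copies are. The stretches below are the first 33 bases of mt-Nd3 (chrM:9459-9806, plus strand, GRCm38) and of the aligned part of its nuclear copy Gm28438, both from GENCODE release M21 transcripts, with the only mismatch over 345 aligned bases in capitals (T3C, counted from the first base of mt-Nd3).
mt-Nd3: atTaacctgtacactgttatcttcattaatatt
Gm28438: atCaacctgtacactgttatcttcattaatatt
The next line is the whole of mt-Atp8, shown because its end is also the beginning of another gene, with the 43 bases shared with mt-Atp6 in capitals.
mt-Atp8: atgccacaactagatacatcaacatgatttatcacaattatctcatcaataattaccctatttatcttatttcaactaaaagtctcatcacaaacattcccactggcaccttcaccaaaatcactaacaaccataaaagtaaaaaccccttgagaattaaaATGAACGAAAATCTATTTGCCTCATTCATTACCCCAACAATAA
The 3 lines after it are the last 28 bases of mRNAs whose gene stops at the first base of the stop codon, in capitals, so that the stop is made only by the poly(A) tail.
mt-Co3: tacgtctccatttattgatgaggatctT
mt-Nd4: ccaaaactaattacaggcctgacaataT
mt-Cytb: gaagacaaaatactaaaattatatccaT

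Counts of the tRNAs were low and uneven in these libraries prepared for mRNA. Only mt-Tl1, mt-Tw, mt-Tt and mt-Tp, which carry leucine, tryptophan, threonine and proline, had at least 1000 counts over the 4 columns, with means of 456, 504, 161 and 125 CPM per kilobase. No counts were listed for mt-Tf, mt-Tk and mt-Ts2 in any column, which with 3 counts as the floor allows up to 0.0472 to 0.0611 CPM per column, and 4 more tRNAs had 1 or 2 counts in all. After the filter on low counts, 28 members remained for testing, namely all 13 mRNAs, both rRNAs and 13 tRNAs. The plot of levels by gene shows these steps along the genome.

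**Figure D2:**
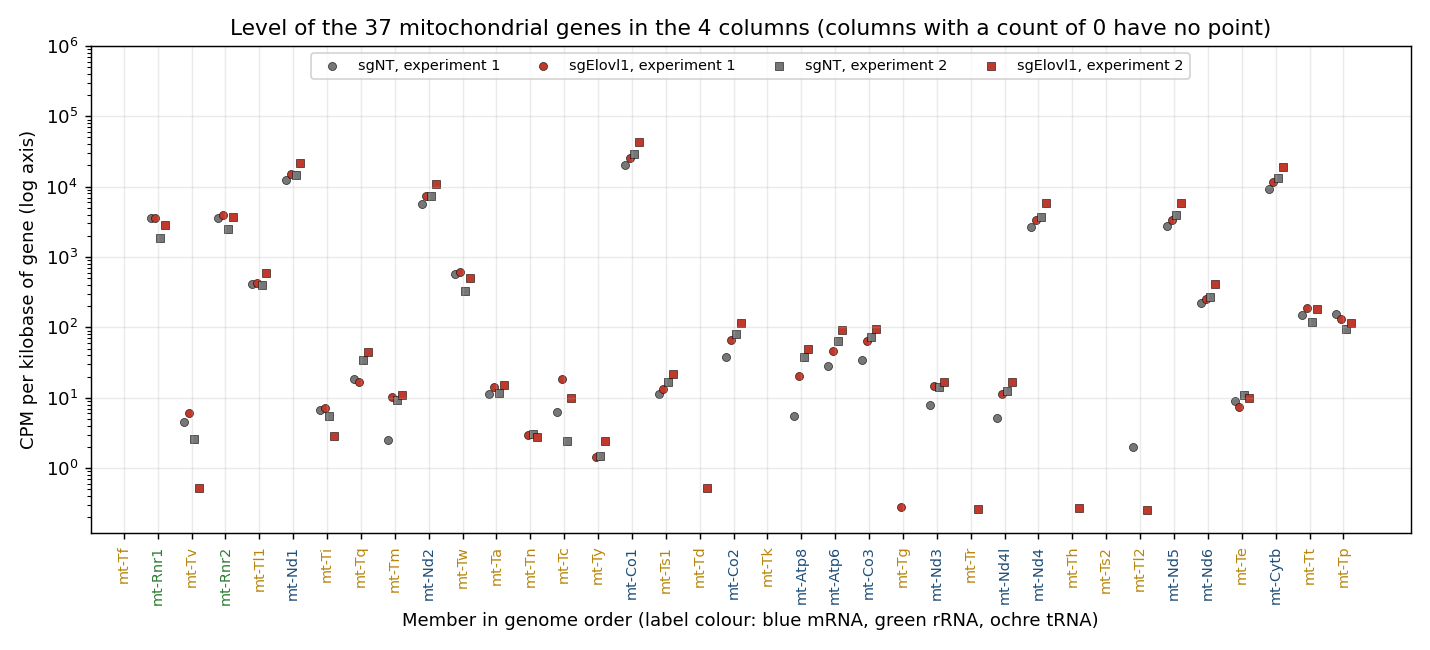
Level of each of the 37 members in CPM per kilobase (vertical log axis) in genome order, with a point for each of the 4 columns (grey sgNT, red sgElovl1, circles experiment 1, squares experiment 2) and no point where the count was 0. The levels run from mt-Co1, with a mean of 29388, to tRNAs without counts, and the square of sgElovl1 in experiment 2 is the highest point of every mRNA.

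The first question was whether mitochondrial RNAs differed between Elovl1-edited and control cells. Of the 28 members tested, 16 were higher with sgElovl1 and 0 were lower (edgeR's quasi-likelihood test with a term for the experiment, adjusted p under 0.05). Of all 16006 genes tested, 0.762% were called higher and 0.437% lower. The 16 were 11 mRNAs, both rRNAs and the tRNAs mt-Tl1, mt-Tw and mt-Tt. The median log2 fold change of the 28 members was 0.43, against -0.01 over all genes tested. Experiment 1 alone gave a median of 0.33 and experiment 2 a median of 0.52, against -0.02 and 0.00 over all genes.

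The columns themselves show a narrower separation than these calls. Both sgElovl1 columns lay above both sgNT columns for 8 of 28 members, against 5.76% of all genes tested, and 12 of the 16 genes called higher had groups that overlapped. The sgElovl1 column was the higher one in both experiments for 22 of 28 members, against 25.6% of all genes. With 2 columns a group and 1 residual degree of freedom, the spread in the test came from a trend shared by all genes. The common biological coefficient of variation, a single value over all genes, was 6.98%. The p-values therefore rest on a spread shared by all genes, estimated from pooled columns. They do not measure the spread between mice, or how far a gene's own columns disagreed between the experiments. When the term for the experiment was dropped, 0 members were called by edgeR, with 0 at an unadjusted p under 0.05. Of all 16006 genes, that fit called 0 higher and 0 lower, with 19 at an unadjusted p under 0.05. Elovl1 itself was not called in it either. Each column was also left out in turn, again without the term for the experiment. Among called members, the fitted differences then ran from 0.0014 to 0.74 for mt-Tw and from 0.0104 to 1.29 for mt-Atp6. They ran from 0.0201 to 0.81 for mt-Nd5 and from 0.0637 to 0.81 for mt-Co1. Each such fit leaves 1 guide with only 1 experiment, so these ranges also hold the difference between the experiments. They therefore cannot show how stable the differences between guides were. DESeq2 called 3 higher, mt-Co2, mt-Co3 and mt-Atp6, against 0.345% of genes by its Wald test and 0.362% by its likelihood-ratio test. The paper used the likelihood-ratio test for these cells. All 3 genes share nearly all of their sequence with nuclear copies. DESeq2 called neither rRNA and none of the 7 mRNAs without near-identical copies and at higher levels.

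Summed by class, the differences were as follows. The mRNA sum was 68488 CPM with sgNT and 85551 CPM with sgElovl1 in experiment 1, against 94190 and 139639 CPM in experiment 2, and the log2 differences were 0.32 and 0.57. The rRNA sum went from 9013 to 9661 CPM and from 5690 to 8530 CPM, or 0.10 and 0.58. The tRNA sum went from 94.3 to 101 CPM and from 73.9 to 106 CPM, or 0.10 and 0.52. Only for the tRNA sum did the groups not overlap, and there the exact two-sided permutation test gave p = 0.333, the smallest that 2 columns against 2 allow, against p = 0.667 for the mRNAs and rRNAs. This test exchanges columns across experiments and so takes no account of the experiment each belongs to. In bulk RNA, more RNA per cell and more cells of a given state cannot be told apart.

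**Figure D3:**
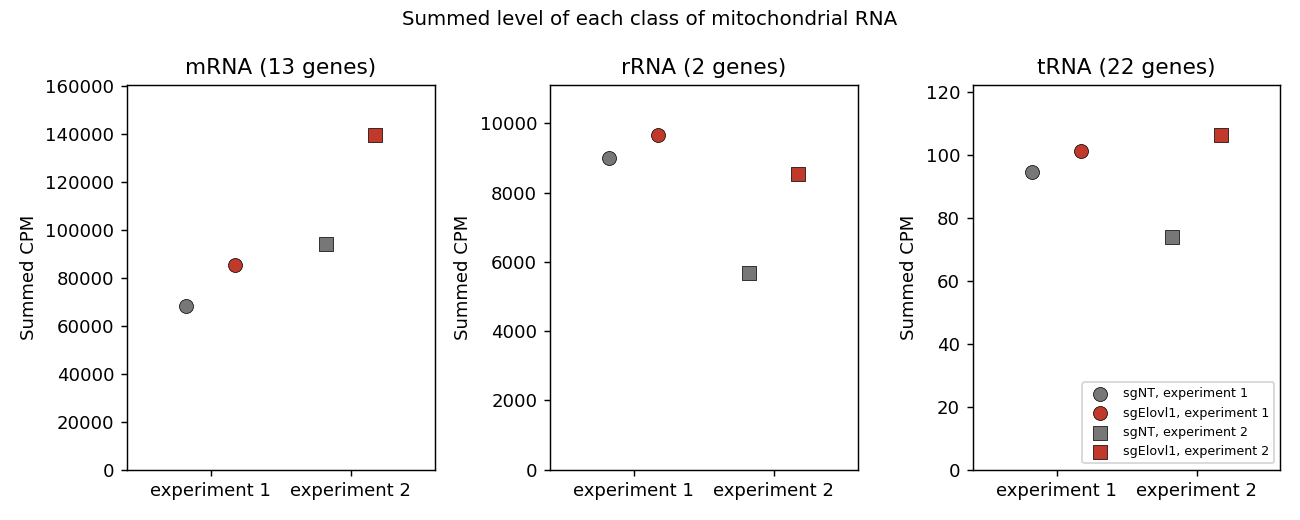
Summed CPM (vertical axis from 0) of the 13 mRNAs, 2 rRNAs and 22 tRNAs in the 4 columns (grey sgNT, red sgElovl1, circles experiment 1, squares experiment 2). Within each experiment the red point is above the grey point in every panel, and the mRNA sum runs from 68488 to 139639 CPM.

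Complex I has 7 subunits among the members. All 7 were higher with sgElovl1 in both experiments, and 5 of them passed the test. mt-Nd1 was at 11753 CPM with sgNT and 14359 CPM with sgElovl1 in experiment 1, and at 13838 and 20479 CPM in experiment 2. The sgElovl1 columns were both above the sgNT columns, and edgeR's quasi-likelihood test gave a log2 fold change of 0.43 (SE 0.10, adjusted p = 0.00288). mt-Nd5 went from 5034 to 6189.9 CPM and from 7324 to 10821 CPM, and mt-Nd4 from 3703 to 4678 CPM and from 5159.6 to 8105 CPM. For both genes the sgElovl1 column of experiment 1 stayed below the sgNT column of experiment 2. Their log2 fold changes were 0.43 and 0.49 (SE 0.09 each), beside 0.45 for mt-Nd2 and 0.40 for mt-Nd6. The light-strand mRNA mt-Nd6, at 115 and 131 CPM in experiment 1 and 138 and 212 CPM in experiment 2, had the smallest fitted difference of the 13 mRNAs. Its difference of 0.18 in experiment 1 was below the smallest of the heavy-strand mRNAs, 0.29 for mt-Nd1. In experiment 2 its difference of 0.61 was exceeded among the mRNAs only by mt-Nd4 at 0.65. mt-Nd3 was at 2.73 and 5.09 CPM and then 4.90 and 5.85 CPM, and mt-Nd4l at 1.53 and 3.38 CPM and then 3.70 and 5.02 CPM. On these low levels their log2 fold changes of 0.57 (SE 0.20) and 0.77 (SE 0.24) did not pass the test (edgeR adjusted p = 0.163 and 0.0837). Both sgElovl1 columns of mt-Nd3 lay above both of its sgNT columns.

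For complex III, mt-Cytb stood at 10663 and 13275 CPM in experiment 1 and at 15076 and 22136 CPM in experiment 2, a log2 fold change of 0.44 (SE 0.10, adjusted p = 0.00214, edgeR's quasi-likelihood test). Its groups overlapped. All 3 complex IV subunits rose. The most abundant member, mt-Co1, went from 31169 to 39229 CPM and from 44820.2 to 66397 CPM, a log2 fold change of 0.45 (SE 0.11). In both experiments and with both guides it kept nearly the same place among the mRNAs, with 45.5, 45.9, 47.6 and 47.6 of every 100 mRNA counts. mt-Co2 was at 25.9 and 44.9 CPM and at 55.4 and 79.5 CPM, and mt-Co3 at 27.03 and 49.7 CPM and at 58.0 and 75.5 CPM. Their log2 fold changes of 0.65 and 0.62 (SE 0.07 each) had the smallest adjusted p of all members, 9.42e-16 and 2.26e-14 (edgeR's quasi-likelihood test), at levels that the nuclear copies make uncertain.

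Both ATP synthase subunits rose. mt-Atp6, part of the proton channel, was at 19.3 and 31.1 CPM in experiment 1 and at 43.2 and 61.9 CPM in experiment 2, a log2 fold change of 0.60 (SE 0.08). mt-Atp8 had the largest fitted difference of the called members, 0.99 (SE 0.19), on low levels of 1.14 and 4.20 CPM and then 7.73 and 9.92 CPM. Its difference was 1.85 in experiment 1 and 0.36 in experiment 2, so the fitted value lay between unlike experiments. For both genes the sgElovl1 column of experiment 1 lay below the sgNT column of experiment 2.

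Both rRNAs rose. mt-Rnr1 was at 3400.3 and 3461 CPM in experiment 1 and at 1762 and 2694 CPM in experiment 2, so that the sgNT column of experiment 1 was above the sgElovl1 column of experiment 2. Its difference was 0.03 in experiment 1 and 0.61 in experiment 2, for a fitted log2 fold change of 0.32 (SE 0.08, adjusted p = 0.0115, edgeR's quasi-likelihood test). mt-Rnr2, the RNA of the large ribosomal subunit, was at 5613 and 6199.9 CPM and then at 3928 and 5836 CPM. Its sgElovl1 columns were both above its sgNT columns, with a log2 fold change of 0.36 (SE 0.09). Since these RNAs were read from libraries prepared for mRNA, their counts do not measure the amount of ribosomal RNA in the cell.

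Of the tRNAs, 3 of the 13 tested were called higher and 0 lower. Their counts too come from libraries prepared for mRNA, so they do not measure the amount of tRNA in the cell. Whether the reads came from mature tRNAs, from precursors or from adjoining RNAs was not tested. The 4 most abundant are printed here as genes of the GRCm38 assembly in GENCODE release M21, with the anticodon in capitals, since they are the only tRNAs with counts high enough to describe. mt-Tl1 (chrM:2676-2750, plus strand) joins the large rRNA to mt-Nd1 without a base between them. mt-Tw (chrM:4950-5016, plus strand) follows mt-Nd2, mt-Tt (chrM:15289-15355, plus strand) follows mt-Cytb, and mt-Tp (chrM:15356-15422, minus strand) directly adjoins mt-Tt on the opposite strand.
mt-Tl1: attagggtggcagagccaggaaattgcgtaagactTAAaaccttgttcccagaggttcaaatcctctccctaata
mt-Tw: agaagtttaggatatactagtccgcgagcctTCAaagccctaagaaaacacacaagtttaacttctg
mt-Tt: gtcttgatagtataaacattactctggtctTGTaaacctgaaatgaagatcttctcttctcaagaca
mt-Tp: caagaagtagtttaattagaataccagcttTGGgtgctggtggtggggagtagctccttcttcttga

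Next to each other in the genome, mt-Tt and mt-Tp did not move alike. mt-Tt was at 10.04 and 12.7 CPM in experiment 1 and at 7.97 and 12.3 CPM in experiment 2, with both sgElovl1 columns above both sgNT columns and a log2 fold change of 0.48 (SE 0.12, adjusted p = 0.0168, edgeR's quasi-likelihood test). mt-Tp was at 10.5 and 8.69 CPM and then at 6.45 and 7.85 CPM, lower in experiment 1, higher in experiment 2, and -0.01 (SE 0.14) in the fit. The difference between the 2 tRNAs was not tested. mt-Tl1 was at 30.8 and 31.8 CPM and then at 30.2 and 44.0 CPM, and mt-Tw at 38.0 and 41.3 CPM and then at 22.4 and 33.5 CPM. Their log2 fold changes were 0.29 and 0.34 (SE 0.08 each), with nearly all of the mt-Tl1 difference in experiment 2, where it was 0.54 against 0.05 in experiment 1.

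The 9 further tRNAs that were tested had at most 446 counts in all and wide errors. mt-Tc, for cysteine, had 26 and 65 counts in experiment 1 and 8 and 36 in experiment 2, a log2 fold change of 1.76 (SE 0.62, adjusted p = 0.166, edgeR's quasi-likelihood test), and mt-Tm, for the initiator and elongator methionine, had 11, 37, 32 and 42 counts in column order, a log2 fold change of 1.04 (SE 0.63). mt-Ta and mt-Ts1 were at 0.38 and 0.32, and mt-Tq at 0.13. mt-Te was at -0.20, mt-Ti at -0.36 and mt-Tv at -0.52. mt-Tn had 0 counts with sgNT in experiment 1 and 11 in each other column. None of the 9 passed the adjusted threshold, and mt-Tc, whose sgElovl1 columns were both above its sgNT columns, had the smallest p of them.

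By strand, 15 of the 20 heavy-strand members tested were called higher and 1 of the 8 light-strand members, mt-Nd6. Of all genes tested, 0.762% were called higher. The 7 other light-strand members are tRNAs, and 6 of them had under 1000 counts. The summed light-strand counts were 0.167, 0.152, 0.151 and 0.153 per 100 heavy-strand counts in column order, so the balance of the strands differed little between guides, by -0.14 on the log2 scale in experiment 1 and 0.02 in experiment 2. mt-Nd6 stood at 2.29 and 2.11 counts per 100 counts of its opposite-strand neighbour mt-Nd5 in experiment 1, and at 1.89 and 1.96 in experiment 2.

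**Figure D4:**
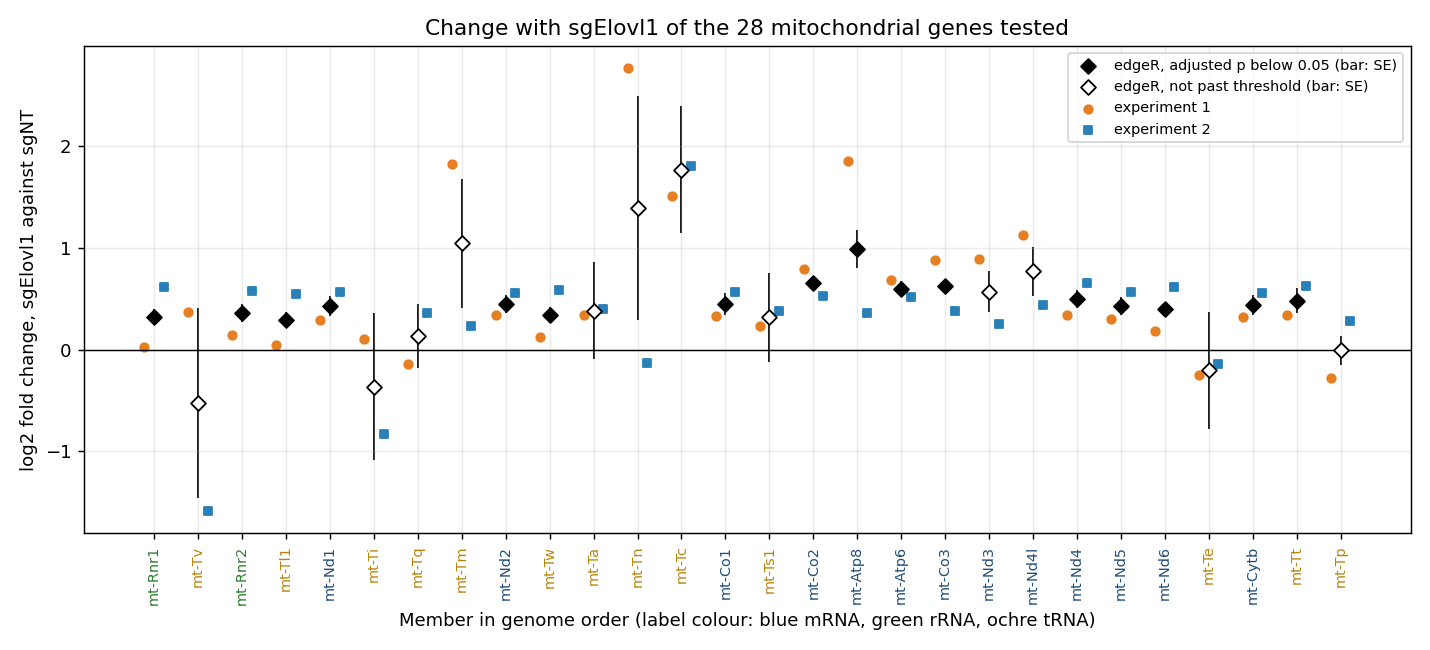
Log2 fold change of sgElovl1 against sgNT (vertical axis) for the 28 members tested, in genome order, as the edgeR estimate with its SE (diamonds, filled where the adjusted p was under 0.05) and in experiment 1 (orange circles) and experiment 2 (blue squares). Of the 28 diamonds, 16 are filled and all 16 lie above 0, while the experiments differ most among tRNAs and mt-Atp8.

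The experiments differed in how evenly the members moved. In experiment 2 the 7 mRNAs at higher levels (mt-Nd1, mt-Nd2, mt-Co1, mt-Nd4, mt-Nd5, mt-Nd6 and mt-Cytb) had log2 differences from 0.55 to 0.65. Both rRNAs, mt-Tl1, mt-Tw and mt-Tt lay between 0.54 and 0.63. In experiment 1 the same 7 mRNAs lay between 0.18 and 0.34, the rRNAs at 0.03 and 0.14, and mt-Tl1 and mt-Tw at 0.05 and 0.12. The 6 mRNAs at low levels (the 5 with near-identical copies and mt-Atp8) had differences from 0.69 to 1.85 in experiment 1 and from 0.25 to 0.52 in experiment 2, and so were above the other mRNAs in the first and below them in the second. With 1 column for each guide in an experiment, the difference between the experiments could not be tested.

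Set against the sum of the 13 mRNAs in the same column, the members differed in how far they moved in each experiment. Relative to that sum, mt-Rnr1 differed by -0.30 on the log2 scale in experiment 1 and by 0.04 in experiment 2, mt-Rnr2 by -0.18 and 0.00, mt-Tl1 by -0.28 and -0.03, and mt-Tw by -0.20 and 0.01. mt-Tt, at 0.02 and 0.06, moved with the mRNAs in both. mt-Co2 was at 0.47 and -0.05, mt-Co3 at 0.56 and -0.19 and mt-Atp8 at 1.56 and -0.21. mt-Nd3 was at 0.58 and -0.31 and mt-Tp at -0.60 and -0.28. mt-Ti was at -0.21 and -1.51, mt-Te at -0.58 and -0.72, and mt-Tm at 1.70 and -0.33. In experiment 2, mt-Ti had 19 counts with sgNT and 11 with sgElovl1. There mt-Te had 38 and 38, and mt-Tm 32 and 42. With so few counts, the values of these 3 tRNAs are imprecise. No such value is given for tRNAs with fewer than 10 counts in a column. As counts, the rRNAs stood at 13.2 and 11.3 per 100 mRNA counts in experiment 1 and at 6.04 and 6.11 in experiment 2.

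Levels also differed between the experiments. Experiment 2 had 15 members higher and 4 lower than experiment 1, against 26.4% of all genes called higher and 29.2% lower (edgeR's quasi-likelihood test, adjusted p under 0.05). All 13 mRNAs, mt-Tl1 and mt-Tq were higher. mt-Rnr1, mt-Rnr2, mt-Tw and mt-Tp were lower, with log2 differences of -0.65, -0.30, -0.53 and -0.43. By either DESeq2 test, 10 members were higher and 2 lower. Of all 16006 genes, its Wald test called 3327 higher and 3621 lower, and its likelihood-ratio test 3280 and 3600. Among the 7 mRNAs at higher levels, the difference was 0.37 for mt-Nd1, 0.47 for mt-Nd2 and 0.48 for mt-Nd6. It was 0.64 for mt-Co1, 0.64 for mt-Nd4, 0.67 for mt-Nd5 and 0.62 for mt-Cytb. The 6 mRNAs at low levels had differences from 0.51 for mt-Nd3 to 1.91 for mt-Atp8. The ratio of mt-Rnr1 to mt-Rnr2, which share a precursor, was 60.6 and 55.8 counts per 100 in experiment 1 and 44.9 and 46.2 in experiment 2. What set the experiments apart beyond their number is not given in the labels, and its part in these differences was not tested.

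**Figure D5:**
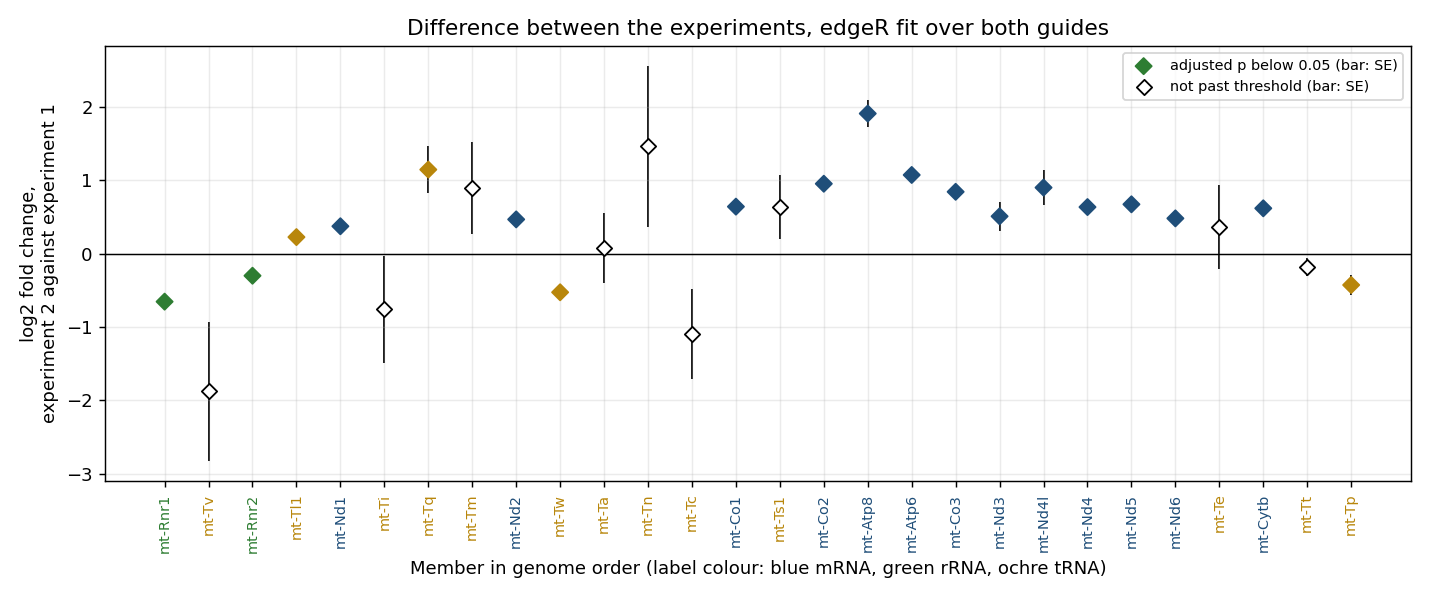
Log2 fold change of experiment 2 against experiment 1 (vertical axis), fitted over both guides with edgeR, with its SE, for the 28 members in genome order (filled where the adjusted p was under 0.05). Both rRNAs lie below 0, at -0.65 and -0.30, and all 13 mRNAs above 0, from 0.37 to 1.91.

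The nuclear copies of mitochondrial genes were counted as genes of their own. There were 11 annotated copies of at least 50 bases and 95% identity, all were tested, and 9 were higher with sgElovl1 and 0 lower, against 0.762% and 0.437% of all genes. The 4 with the most counts were Gm13340, 97.6% identical to the whole of mt-Co1, and Gm10925, Gm28437 and Gm28661, each 100% identical over nearly the whole of mt-Atp6, mt-Co3 and mt-Co2. Gm10925 was at 28.3 and 40.7 CPM in experiment 1 and at 61.7 and 85.2 CPM in experiment 2, next to 19.3, 31.1, 43.2 and 61.9 CPM for mt-Atp6 itself. The log2 fold changes were 0.90 for Gm13340, 0.49 for Gm10925, 0.39 for Gm28437 and 0.49 for Gm28661 (SE 0.07 each). Counts of an identical pair cannot be told apart, so neither the gene nor the copy of these pairs has a level of its own in this table.

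The genes that transcribe the mitochondrial genome, and cut, modify and degrade its RNA, are nuclear. The 51 listed factors are mostly of these kinds, but some act in mitochondrial DNA replication (Polg, Polg2, Twnk, Ssbp1, Mgme1, Top1mt and Primpol). Of the 51, 0 passed edgeR's quasi-likelihood test with sgElovl1 in either direction. Of all genes, 0.762% were called higher and 0.437% lower. At an unadjusted p under 0.05 in that test were 3 of the 51, and 1698 of all 16006 genes. The median log2 fold change of the 51 was 0.01, with a range from -0.34 to 0.23. The smallest p belonged to Mgme1, an exonuclease of mitochondrial DNA replication, at -0.34 (SE 0.11, adjusted p = 0.0943 by edgeR's quasi-likelihood test), followed by Pnpt1, the polynucleotide phosphorylase of the mitochondrial matrix, at 0.23, Gtpbp3, which modifies mitochondrial tRNAs, at 0.18, and Mterf2, of the transcription termination factor family, at 0.20. Between the experiments, 9 of the 51 were higher and 28 lower in experiment 2, against 26.4% and 29.2% of all genes.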

How the data were processed

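The authors aligned strand-specific reads to GRCm39 with STAR 2.7.10b, counted them per gene with featureCounts 2.0.1 in R 4.3.3, and summed the 2 mice of each group; the deposited values are raw counts for 56805 symbols in 4 columns (8 labelled samples). How reads with several alignments were counted is not given in the sources used here. Counts were tested with edgeR 4.0.16 (quasi-likelihood test, TMM scaling, filterByExpr, terms for experiment and guide, 16006 genes, Benjamini-Hochberg adjustment, threshold 0.05), after the procedure had been tested on simulated data. Alternatives were other scalings, filters, limma-voom 3.58.1, DESeq2 1.42.0, removal of a shift between experiments, a fit without the experiment term and leaving out each column (without that term). Summed CPM were compared with exact permutation tests. Positions, lengths and sequences came from GENCODE release M21 (GRCm38), which is not the build of the counts. Nuclear copies were found with blastn 2.17.0 and by shared 50-base words. The 13 mRNAs and both rRNAs were named with their values, tRNAs when they passed the filter, and of the listed factors the 4 with the smallest p; at most 4 nuclear copies were named, those with the most counts. Members and lists were chosen with earlier results of these data known. For abundant members the precision is set by the 4 columns (49068952 to 63623476 counts), not by depth. For tRNAs with few counts it is limited by those counts too, as for mt-Tn (SE 1.10 on 33 counts). A further marker gene is not reported here.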

Additional observations from a re-analysis of the deposited data

Results flagged for a closer look

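For 5 tRNAs, the log2 difference between sgElovl1 and sgNT had opposite signs in the experiments. It was 0.37 in experiment 1 and -1.58 in experiment 2 for mt-Tv, 0.10 and -0.83 for mt-Ti, -0.14 and 0.36 for mt-Tq, and -0.28 and 0.28 for mt-Tp. For mt-Tn it was 2.76 and -0.13, where the first value depends on the prior count because sgNT had 0 counts, and is no bound. The difference between the experiments was not tested, as each holds 1 column per guide. Of these tRNAs, mt-Tv had 53, mt-Ti 85, mt-Tn 33 and mt-Tq 446 counts over all columns, and mt-Tp had 1882.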

How the results depend on the processing

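The 16 members called higher stayed 16 with DESeq2's size factors, upper-quartile scaling, scaling from nuclear genes only and limma-voom, and became 15 without the filter (mt-Tl1 lost) and 14 with the shift between experiments removed (mt-Co1 and mt-Tl1 lost). With a minimum mean of 5 CPM, 5 were called, all mRNAs (mt-Atp6, mt-Co2, mt-Co3, mt-Nd4 and mt-Nd6), with 0 rRNAs and 0 tRNAs and 16 members at an unadjusted p under 0.05. DESeq2's Wald and likelihood-ratio tests each called 3, all mRNAs, with 0 rRNAs and 0 tRNAs, 12 members at an unadjusted p under 0.05 and 14 with an adjusted p. They called 10 higher and 2 lower in experiment 2 in place of 15 and 4. Of all 16006 genes, the Wald test called 3327 higher and 3621 lower there, and the likelihood-ratio test 3280 and 3600. Without the experiment term 0 mRNAs, 0 rRNAs and 0 tRNAs were called by edgeR (0 members at an unadjusted p under 0.05), and Elovl1, at -0.80, lost its call. Over all 16006 genes that fit called 0 higher and 0 lower, with 19 at an unadjusted p under 0.05. Leaving out each column in turn, also without that term, gave values from -0.89 to -0.68 for Elovl1. Each such fit leaves 1 guide with only 1 experiment, so its differences also hold the difference between the experiments. In these fits the sign turned for mt-Atp8 (-0.13 to 2.66), mt-Rnr1 (-0.12 to 0.80), mt-Ti (-1.07 to 0.25), mt-Tn (-0.11 to 6.57), mt-Tp (-0.33 to 0.36), mt-Tq (-0.64 to 0.75), mt-Ts1 (-0.0496 to 0.66) and mt-Tv (-2.71 to 0.76). mt-Tp turned from -0.01 to 0.0049 with DESeq2's size factors, 0.0104 with upper-quartile scaling, 0.0141 with nuclear scaling, 0.0076 with the CPM minimum, 0.0112 with either DESeq2 test and 0.0289 with the shift removed. Upper-quartile and nuclear scaling called 1 of the 51 factors higher, Pnpt1 (edgeR adjusted p = 0.0482 and 0.0475). Over all genes, the calls higher and lower were 122 and 70, against 182 and 57 with upper-quartile scaling, 174 and 44 with nuclear scaling, 132 and 44 with DESeq2's size factors, 66 and 28 without the filter, 50 and 9 with the CPM minimum, 49 and 24 with the shift removed, and 22 and 4 by DESeq2. The causes were not tested. No paired analysis was possible because the deposited columns sum the mice and carry no replicate numbers; the experiment term of the reported test is the only pairing that the table allows.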
